A study of Mus musculus with 10 samples.

Results

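The embryonic mouse ovary was compared at E18.5 and at E16.5, the last interval of a series of ovary arrays that also covered E11.5, E12.5 and E14.5. The members of the comparison were 45037 probe sets, all of the 45101 on the array other than the 64 control probe sets, on 4 of the 10 arrays. These were E18.5 replicates 1 and 2, set against E16.5 replicates 1 and 2. Each array held biotin-labelled total RNA of embryonic ovary, extracted with Trizol, and the labels call the preparations independent and the stages duplicated. Strain, genotype, pooling of embryos and the software that made the signals are not given in the sources used here. Nothing further ties a replicate to separate litters, so the p-values measure the spread between these preparations. Values are scaled signals, which are array brightness after each array was brought to a common 75th percentile, and changes are on the log2 scale of the signal plus 16, E18.5 over E16.5, with their standard error (SE).

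In the fetal ovary germ cells enter meiosis together and pass through the leptotene, zygotene and pachytene steps of prophase, in which chromosomes break, pair and exchange strands, before they arrest in diplotene around birth. The arrested oocytes then leave their cysts and are enclosed by pregranulosa cells as primordial follicles. A set of oocyte transcription factors, Figla, Nobox, Lhx8, Sohlh1 and Sohlh2, is needed for that step in the mouse, and among their known target genes are zona pellucida proteins and maternal effect genes, whose products are stored in the oocyte and used by the embryo.

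Genes of the oocyte and of maternal stores were among the largest increases between the stages, 6 of 46 tested genes of meiotic prophase fell, and none of 26 tested genes of ovarian supporting cells passed the test in limma. Of 26890 probe sets bright enough to test, 236 differed at an adjusted p under 0.05 (limma, Benjamini-Hochberg), or 0.878%, with 174 higher and 62 lower at E18.5. With the brightest probe set standing for its gene, 121 of 13104 genes were higher (0.923%) and 38 were lower (0.29%). The median change was 0.02 over all genes. The 2 stages did not overlap in any of the 159 genes called, and they did not overlap in 47.6% of all genes tested. In 112 of the 121 higher genes both E18.5 arrays also lay above every array of E14.5 and E11.5, and in 18 of the 38 lower genes both lay below all of them.

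The arrays limit these counts. The 236 probe sets became 36 without E18.5 replicate 1, 64 without E18.5 replicate 2, 56 without E16.5 replicate 1, 175 without E16.5 replicate 2, 221 with E12.5 replicate 1 added to the fit and 3 with both E12.5 arrays added. Of the 61 named genes that passed, 16 passed without any 1 of the 8 arrays, namely Dppa3, Nlrp4f, Nobox, Lhx8, Esrp1, Ccno, Nlrp5, Cd55, Sohlh1, Bzw2, Gdpd1, Kit, Piwil2, Tcl1, Kdm1b and Dmc1. The E18.5 arrays carried a hybridize date of their own, and the E16.5 arrays shared another with the E14.5 arrays. Hybridize date and stage thus cannot be told apart between E18.5 and E16.5. The cre hybridisation spike read 30207 and 26621 on the E18.5 arrays, against 15308 and 19676 on the E16.5 arrays, and bioB read 1538 and 1435 against 882 and 876. The 3′ to 5′ signal ratio of Actb was 1.60 and 1.66 at E18.5 and 1.63 and 1.51 at E16.5. E16.5 replicate 2 correlated with the E18.5 arrays at r = 0.933 and 0.938 across probe sets, and E16.5 replicate 1 at r = 0.912 and 0.922 (probe sets are not independent replicates). What these differences contribute to the gene changes was not tested.

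Of 24 oocyte transcription factors and primordial follicle regulators on the array 20 were tested. Of these 6 rose and 0 fell, with a list median of 0.46 against 0.02 for all genes. Nobox reached the test only through its E18.5 arrays, so it could only lie above 0. Nobox, a homeobox factor without which follicles are lost, read 409 and 430 at E18.5, against 11.6 and 5.41 at E16.5. Both E16.5 arrays lay below the 95th percentile of control probe sets with no spiked target (19.2 and 32.4 there), so the increase is a bound, at least 16.8-fold (adjusted p = 1.66e-04). Nobox had also been at background at E14.5, with 25.0 and 9.32.

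Lhx8, a LIM homeobox factor of the early oocyte, read 1286 and 1203 at E18.5 and 65.2 and 57.9 at E16.5, and rose by 4.02 ± 0.27 (SE, n = 2 each, adjusted p = 1.57e-05). It had already come up from 2.27 and 3.18 at E14.5, where it could not be told from background. Sohlh1, a basic helix-loop-helix factor of oocyte differentiation, read 920 and 927 at E18.5, against 98.1 and 98.0 at E16.5, and rose by 3.04 ± 0.21. Its arrays of each stage lay almost on top of each other.

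Figla, the helix-loop-helix factor that drives zona genes, read 1116 and 1213 at E18.5, against 363 and 302 at E16.5, and rose by 1.77 ± 0.23 (adjusted p = 0.00239). Sohlh2, the partner of Sohlh1, read 305 and 339 at E18.5 and 174 and 154 at E16.5, a change of 0.91 ± 0.21 that did not pass (adjusted p = 0.0723). At E16.5 Figla, Sohlh2, Lhx8 and Sohlh1 were thus above background on both arrays and Nobox was not. Kit, the receptor tyrosine kinase of germ cells that later controls oocyte growth, read 408 and 406 at E18.5, against 78.8 and 45.4 at E16.5, and rose by 2.47 ± 0.25, and its other tested probe set rose by 2.24 ± 0.25. Kitl, the ligand of Kit made by supporting cells, changed by -0.35 ± 0.19 (adjusted p = 0.471). Jag1, a Notch ligand made by oocytes, read 197 and 206 at E18.5 and 95.3 and 73.6 at E16.5 and rose by 1.12 ± 0.22, though its other tested probe set did not pass (0.42, adjusted p = 0.550). Its receptor Notch2 changed by 0.06 ± 0.24 (adjusted p = 0.944). Foxo3, which holds primordial follicles dormant, was at 0.92 ± 0.21 (adjusted p = 0.0663) and Taf4b, a germ cell subunit of the general transcription machinery, at -0.60 ± 0.24 (adjusted p = 0.302). The 6 calls became 4 without either E18.5 array and 5 without either E16.5 array; Jag1 was lost in each of these 4 fits, and Figla without either E18.5 array.

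**Figure D1:**
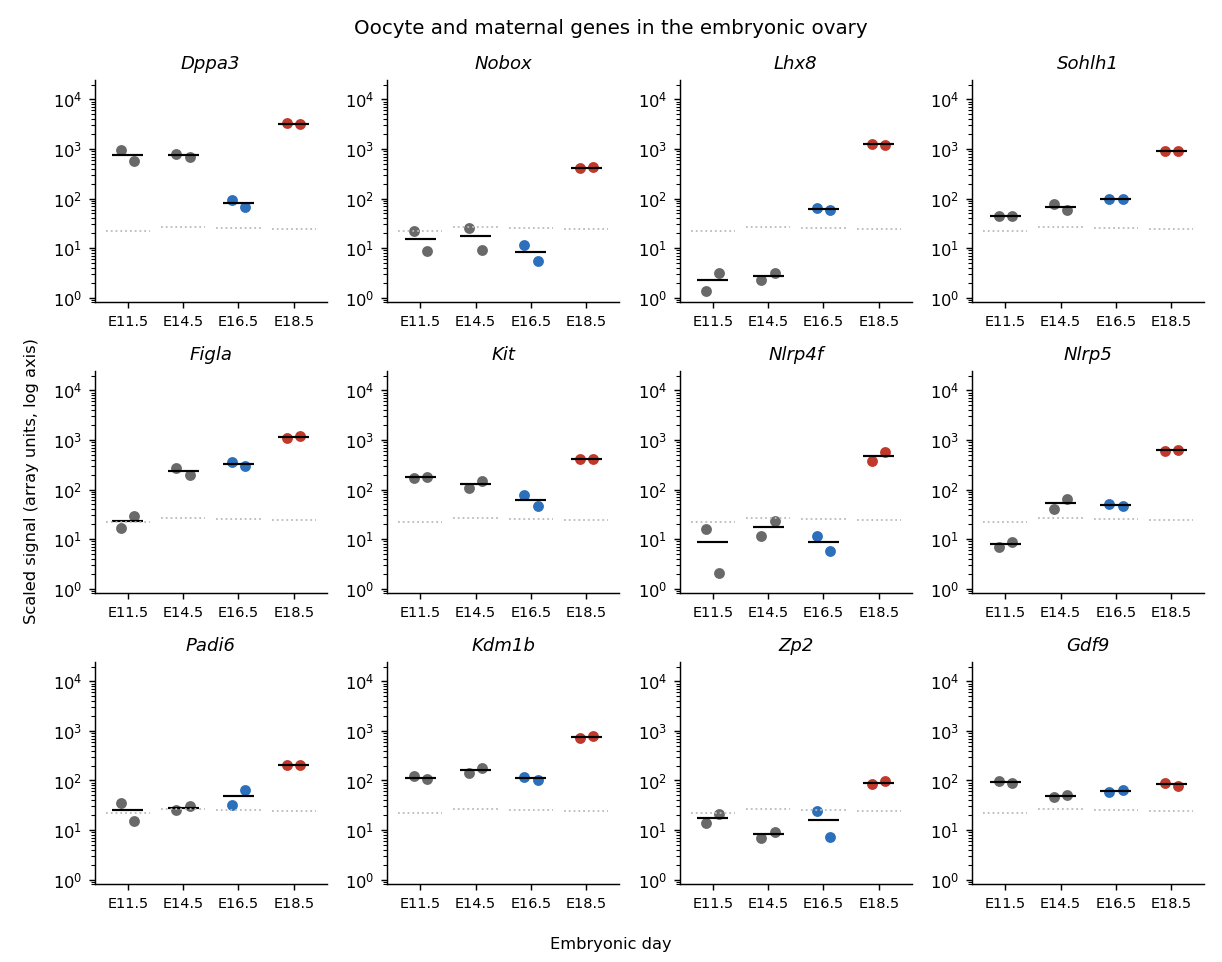
Scaled signal (log axis) of 12 oocyte and maternal genes on the 2 arrays of each stage (points), with the stage mean (bar) and the mean 95th percentile of unspiked control probe sets (dotted line). Dppa3 read 3353 and 3163 at E18.5, above its 94.8 and 68.3 at E16.5 and above every earlier array, while Gdf9 stayed between 46.3 and 96.6 on all 8 arrays.

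Of 26 maternal effect genes of the egg on the array 14 were tested. Of these 5 rose, 0 fell and 13 lay above 0, with a median of 1.04. A gene bright only at E18.5, such as Nlrp4f below, enters the test through those arrays and can then only lie above 0. The count above 0 and the median are thus partly set by the brightness filter. Dppa3 (Stella), a chromatin protein that protects the maternal genome from demethylation in the zygote, had the largest fitted change on the log2 scale of the signal plus 16, where genes at background at E16.5 have only bounds. It read 3353 and 3163 at E18.5, against 94.8 and 68.3 at E16.5, a rise of 5.08 ± 0.23 (adjusted p = 2.60e-07). At E14.5 it had read 805 and 705, so E16.5 was its lowest stage.

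Nlrp5 (Mater), a core protein of the subcortical maternal complex, read 592 and 640 at E18.5, against 51.4 and 47.5 at E16.5, and rose by 3.27 ± 0.27 (adjusted p = 5.31e-05). Nlrp4f, a related gene of the same family, read 371 and 560 at E18.5 and 11.3 and 5.80 at E16.5, and rose at least 18.3-fold, since both E16.5 arrays were at background. Nlrp genes have close copies, and their probes were not checked for sharing. Padi6, which organises the cytoplasmic lattices of the egg, read 209 and 203 at E18.5, against 32.3 and 64.9 at E16.5, and rose by 1.83 ± 0.34. Elavl2, an RNA-binding protein of oocytes and neurons, read 1111 and 1138 at E18.5, against 446 and 365 at E16.5, and rose by 1.44 ± 0.23, with 3 of its 4 other tested probe sets also past the test.

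Other parts of the subcortical complex did not pass: Ooep changed by 0.93 ± 0.25 (adjusted p = 0.130), Tle6 by 0.80 ± 0.22 (adjusted p = 0.148) and Khdc3 by 0.07 ± 0.32 (adjusted p = 0.949). Btg4, which clears maternal RNA after fertilisation, lay close to the threshold at 1.40 ± 0.31 (adjusted p = 0.0556). Without either E18.5 array or without E16.5 replicate 1 the 5 calls became 3. Over all 3 oocyte lists, which share Jag1 and Ooep, 11 of 43 distinct genes rose and 0 fell.

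The start regions of the oocyte genes that rose most are shown because the factors above are DNA-binding proteins with known short motifs: the E-box CANNTG, read by helix-loop-helix factors such as FIGLA, the NOBOX element TAATTG and the LHX8 element TGATTG. The sequences are RefSeq promoters of build GRCm38.p6, from 250 bases before to 50 bases after an annotated transcript start, in lower case with every motif match on either strand in capitals. Dppa3 is not among them. Nlrp5 has 2 annotated starts in the table.
Nlrp4f, chr13:65205667-65205966, minus strand: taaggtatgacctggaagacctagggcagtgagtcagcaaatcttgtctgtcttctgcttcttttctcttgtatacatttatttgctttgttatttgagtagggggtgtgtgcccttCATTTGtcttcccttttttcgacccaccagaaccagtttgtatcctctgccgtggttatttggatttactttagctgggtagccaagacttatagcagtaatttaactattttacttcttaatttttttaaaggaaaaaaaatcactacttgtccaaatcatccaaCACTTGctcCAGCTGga
Nobox, chr6:43309505-43309804, minus strand: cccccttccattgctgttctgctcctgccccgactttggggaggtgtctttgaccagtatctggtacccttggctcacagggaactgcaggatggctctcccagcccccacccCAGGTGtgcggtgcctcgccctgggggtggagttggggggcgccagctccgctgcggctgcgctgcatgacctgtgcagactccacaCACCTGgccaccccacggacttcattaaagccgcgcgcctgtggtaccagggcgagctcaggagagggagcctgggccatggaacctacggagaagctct
Lhx8, chr3:154330511-154330810, minus strand: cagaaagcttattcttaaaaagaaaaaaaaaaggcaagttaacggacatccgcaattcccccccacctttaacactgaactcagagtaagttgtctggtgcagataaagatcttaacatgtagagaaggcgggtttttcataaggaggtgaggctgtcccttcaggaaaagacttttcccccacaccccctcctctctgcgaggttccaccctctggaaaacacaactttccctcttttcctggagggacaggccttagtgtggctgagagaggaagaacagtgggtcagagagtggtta
Nlrp5, chr7:23403852-23404151, plus strand: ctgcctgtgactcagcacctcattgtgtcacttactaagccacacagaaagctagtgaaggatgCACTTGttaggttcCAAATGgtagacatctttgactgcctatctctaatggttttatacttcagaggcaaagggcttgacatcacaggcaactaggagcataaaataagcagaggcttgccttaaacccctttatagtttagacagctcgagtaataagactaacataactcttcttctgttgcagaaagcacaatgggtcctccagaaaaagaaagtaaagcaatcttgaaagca
Nlrp5, chr7:23385639-23385938, plus strand: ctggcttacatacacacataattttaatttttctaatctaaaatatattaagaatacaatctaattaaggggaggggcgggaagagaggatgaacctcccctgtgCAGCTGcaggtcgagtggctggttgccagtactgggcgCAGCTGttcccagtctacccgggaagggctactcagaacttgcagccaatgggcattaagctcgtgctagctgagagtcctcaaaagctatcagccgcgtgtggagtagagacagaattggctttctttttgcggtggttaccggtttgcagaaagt
The capitals are all E-boxes. Nlrp4f held 3, with first bases at -133, 34 and 43 from the start, and Nobox held 2, at -137 and -50. Each Nlrp5 start held 2, at -186 and -172 in the first sequence printed and at -145 and -107 in the second. Lhx8 held none of the 3 motifs, and the letters of the NOBOX and LHX8 elements were in none of these windows. Matches this short are common: of the 32851 promoters listed by RefSeq 72.3% held an E-box, 8.0% the NOBOX element and 14.0% the LHX8 element. Of the 121 higher genes 102 had an entry, with 133 promoters, of which 78.95% held an E-box, 4.51% the NOBOX element and 15.04% the LHX8 element. A match is a run of letters and not a binding site.

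Of 23 secreted and membrane proteins of the oocyte on the array 11 were tested. Of these 10 lay above 0, with a median of 0.84, and 1 passed, the Notch ligand Jag1 already given. Zp2, a zona pellucida protein that sperm bind, read 85.2 and 95.7 at E18.5, against 24.4 and 7.35 at E16.5, a change of 1.79 ± 0.46 (adjusted p = 0.114). Zp3, another zona protein, read 67.7 and 63.4 at E18.5 and 11.8 and 28.8 at E16.5 (adjusted p = 0.255). Zp2 and Zp3 thus did not overlap between stages, as was so for 47.6% of all genes, while staying under 100 on every array. Both reached the test only through their E18.5 arrays, so they could only lie above 0. Zp3 was at background on both E16.5 arrays, so its change is a bound, at least 2.63-fold, and Zp2 was at background on 1 of them. Zp1, which crosslinks zona filaments, changed by 0.06 ± 0.44 (adjusted p = 0.971), and Gdf9, a growth factor that oocytes send to granulosa cells, by 0.34 ± 0.26 (adjusted p = 0.607). Bmp15, the partner of Gdf9, was too dim to test, with no array of its 3 probe sets above 18.6 at E18.5 or 13.8 at E16.5. Oosp1, an oocyte secreted protein, was also too dim, at 26.1 and 27.0 against 25.2 and 44.0.

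**Figure D2:**
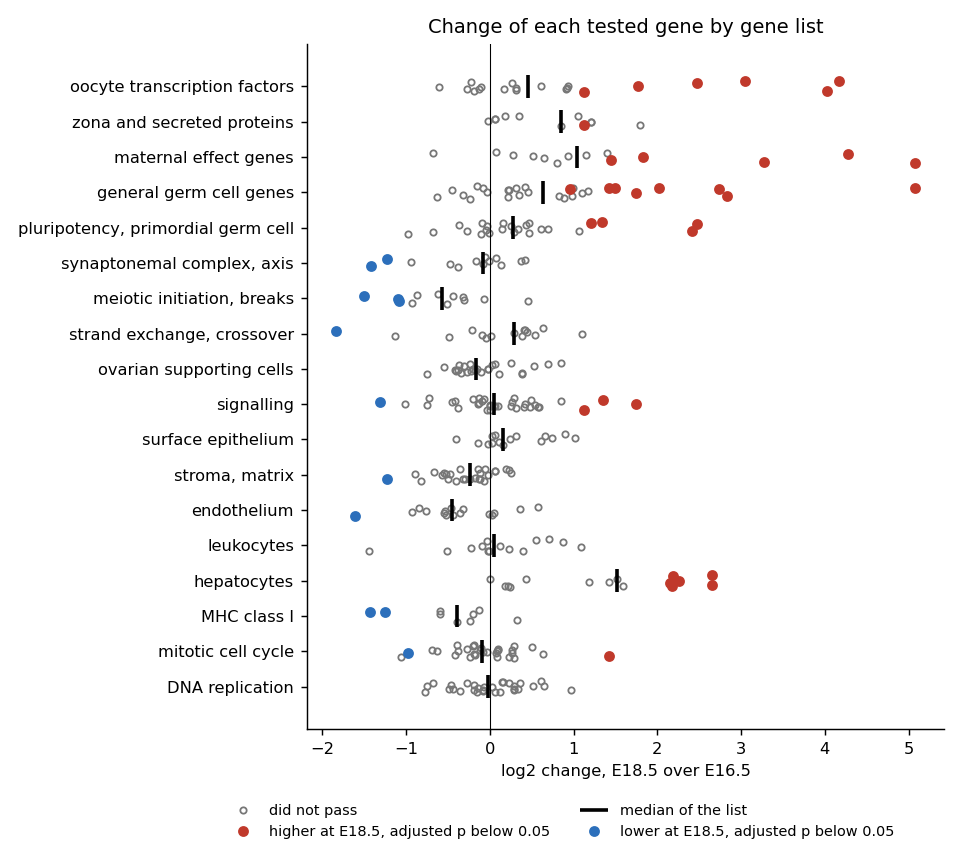
The log2 change of every tested gene, E18.5 over E16.5, in 18 gene lists, with genes past the test filled (red higher, blue lower), the others open and the list median as a bar. The filled points of the oocyte, maternal and germ cell lists all lie to the right of 0 and those of the meiotic lists all to the left, while the list of ovarian supporting cells has none.

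The general germ cell list had 28 members tested, of which 8 rose and 0 fell (median 0.64). Besides Dppa3, the 7 others have known roles in the pathway of Piwi-interacting RNAs (piRNAs), which silences transposons in germ cells of the mouse testis. This was seen after their values, and no list of that pathway was counted. Tdrd5, Tdrd7, Tdrd12, Pld6, Rnf17 and Ddx4, also of the pathway, were tested in the same list and did not pass. Tdrd9, a helicase of that pathway, read 593 and 544 at E18.5, against 45.9 and 92.5 at E16.5, and rose by 2.83 ± 0.35 (adjusted p = 0.00172). Piwil2 (Mili), the Piwi protein of fetal germ cells, read 731 and 730 at E18.5 and 147 and 194 at E16.5 and rose by 2.02 ± 0.22 (adjusted p = 5.83e-04). Tdrd1, a Tudor protein that binds Piwi proteins, read 181 and 191 at E18.5 and 24.5 and 6.67 at E16.5 and rose by 2.74 ± 0.48.

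The other 4, chosen for mention after their values were seen, were Gtsf1, which licenses Piwi proteins (1.75 ± 0.27), the helicase Mov10l1, which loads them (1.50 ± 0.22), the membrane protein Asz1 (1.42 ± 0.21) and Mael (0.96 ± 0.20). Their E18.5 and E16.5 arrays did not overlap; Mov10l1, for example, read 1018 and 985 against 278 and 426. The helicase Ddx4 (Vasa), a marker of germ cells at all these stages, read 478 and 600 at E18.5 and 579 and 523 at E16.5 and changed by -0.04 ± 0.19 (adjusted p = 0.957). Dazl, an RNA-binding protein of germ cells, changed by 0.45 ± 0.26 (adjusted p = 0.486) and Tex14, Boll, Rnf17 and Tex101 lay below 0 without passing. In RNA of whole ovaries, fewer cells of a type and less RNA per cell cannot be told apart. The 8 calls became 2 without E18.5 replicate 1, 3 without E18.5 replicate 2, 4 without E16.5 replicate 1 and 5 without E16.5 replicate 2.

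Of 24 tested pluripotency and primordial germ cell genes 4 rose and 0 fell, with a median of 0.27. Besides Kit these were Tcl1, a coactivator of AKT kinases that is stored in the egg, which read 289 and 325 at E18.5, against 70.2 and 26.3 at E16.5, and rose by 2.42 ± 0.31, and the small chromatin and RNA-binding proteins Dppa4 (1.34 ± 0.26) and Dppa5a (1.21 ± 0.22). Dppa5a read 1885 and 1731 at E14.5, 167 and 220 at E16.5 and 417 and 515 at E18.5, so the later rise reached less than its level at E14.5. The core pluripotency factor Pou5f1 read 72.8 and 5.66 at E18.5 and 8.30 and 17.98 at E16.5, with overlapping stages (adjusted p = 0.639). Nanog, Sox2 and Prdm14 also did not pass, with changes of 0.25, -0.11 and -0.04. Of the 4 calls, 2 were left without either E18.5 array or without E16.5 replicate 1, and 3 without E16.5 replicate 2.

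Among genes of DNA methylation and histone marks in germ cells 1 of 18 rose, Kdm1b, the histone H3 lysine 4 demethylase that oocytes need to establish maternal imprints. It read 722 and 780 at E18.5, against 119 and 104 at E16.5, and rose by 2.59 ± 0.21 (adjusted p = 5.31e-05). It had lain between 104 and 181 on all 6 arrays of the earlier stages. The de novo methyltransferase Dnmt3a changed by -0.20 and Dnmt3b by 0.25, and neither passed. Trp63, the p53 relative that guards the genome of arrested oocytes, read 132 and 129 at E18.5 and 15.8 and 26.3 at E16.5. It rose at least 5.25-fold, both E16.5 arrays being at background, as the 1 call among 15 tested genes of oocyte survival and apoptosis, and it was lost without either E18.5 array and without E16.5 replicate 1. The other Trp63 probe sets were too dim to test. They read 45.1 and 45.0 at E18.5 against 6.23 and 34.3 at E16.5, 41.7 and 28.5 against 24.8 and 50.6, and 32.8 and 20.2 against 5.75 and 31.0.

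Over 4 lists of meiotic prophase 6 of 46 tested genes fell, 0 rose and the others did not pass. Of the 46, 31 lay below 0 and the median was -0.17. The calls lay in initiation and double-strand breaks (3 of 12, list median -0.57), in the synaptonemal complex and chromosome axis (2 of 13, median -0.08) and in strand exchange and crossover (1 of 15, median 0.28). None of 6 genes of telomere attachment passed in limma. At an unadjusted p under 0.05 the lists held, in that order, 0, 0, 3 and 0 higher and 6, 3, 3 and 2 lower genes. Of all genes 8.26% were higher and 6.24% lower at that p. Dmc1, the recombinase that drives strand exchange between homologous chromosomes, read 119 and 141 at E18.5, against 517 and 494 at E16.5, and fell by 1.84 ± 0.22 on the log2 scale (adjusted p = 0.00129). Its other tested probe set also fell.

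Stag3, a cohesin subunit of meiotic chromosome axes, read 273 and 287 at E18.5, against 713 and 837 at E16.5, and fell by 1.42 ± 0.25. 4930447C04Rik (Six6os1), a central element protein of the synaptonemal complex, read 500 and 517 at E18.5, against 1380 and 1070 at E16.5, and fell by 1.23 ± 0.24, although 1 of its 2 other tested probe sets lay above 0. In both genes the E18.5 arrays lay close together and far under the E16.5 arrays. Sycp1 and Sycp3, structural proteins of the complex, pointed upwards without passing. Sycp1, the transverse filament, read 2058 and 2154 at E18.5 and 1606 and 1649 at E16.5 (0.37 ± 0.25, adjusted p = 0.569). Sycp3, of the lateral element, read 2593 and 2945 against 2215 and 1923 (0.42 ± 0.22, adjusted p = 0.432). Of the 13 tested genes of that list only 4 lay above 0, Sycp1 and Sycp3 among them. Smc1b, the meiotic cohesin core, changed by -0.38 ± 0.22 (adjusted p = 0.501).

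Genes of meiotic entry were lower still at E18.5 after an earlier peak. Stra8, the retinoic acid target that starts meiosis, read 102 and 124 at E18.5, against 261 and 251 at E16.5, and fell by 1.08 ± 0.21. Meioc, which keeps germ cells in prophase, read 90.5 and 131 at E18.5, against 393 and 294 at E16.5, and fell by 1.51 ± 0.26. Both had been higher at E14.5, where Stra8 read 1574 and 1180 and Meioc 685 and 711. Atr, a checkpoint kinase that marks unpaired chromosome axes, read 600 and 548 at E18.5, against 1590 and 974 at E16.5, and fell by 1.10 ± 0.22, while its 2 other tested probe sets lay at -0.98 and -0.40 and did not pass. Rec8, a meiotic cohesin, was already at 38.7 and 45.6 at E16.5 and read 33.2 and 47.3 at E18.5. Spo11, which makes the double-strand breaks, read 219 and 182 at E18.5 and 301 and 281 at E16.5 (-0.51 ± 0.27, adjusted p = 0.447).

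M1ap, a meiosis protein of no list, read 150 and 112 at E18.5, against 578 and 444 at E16.5, and fell by 1.85 ± 0.23 (adjusted p = 0.00195). Inca1, an inhibitor of cyclin A1 and CDK2, read 120 and 131 at E18.5, against 445 and 385 at E16.5, and fell by 1.61 ± 0.20, but its other tested probe set changed by -0.13 and did not pass (adjusted p = 0.893). Spdya, an activator of CDK2 at meiotic telomeres, read 232 and 258 at E18.5, against 562 and 558 at E16.5, and fell by 1.14 ± 0.24. It was meant for the telomere list but was misspelt there, so it is in none of these counts, and it was picked up after its values were seen. M1ap, Inca1 and Dmc1 had lain at 39.5 or less on the E11.5 arrays, near background. Without either E18.5 array or without E16.5 replicate 1, 1 of the 6 list calls was left, that of Dmc1, which passed in all 8 fits that left out 1 array; without E16.5 replicate 2 there were 3.

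**Figure D3:**
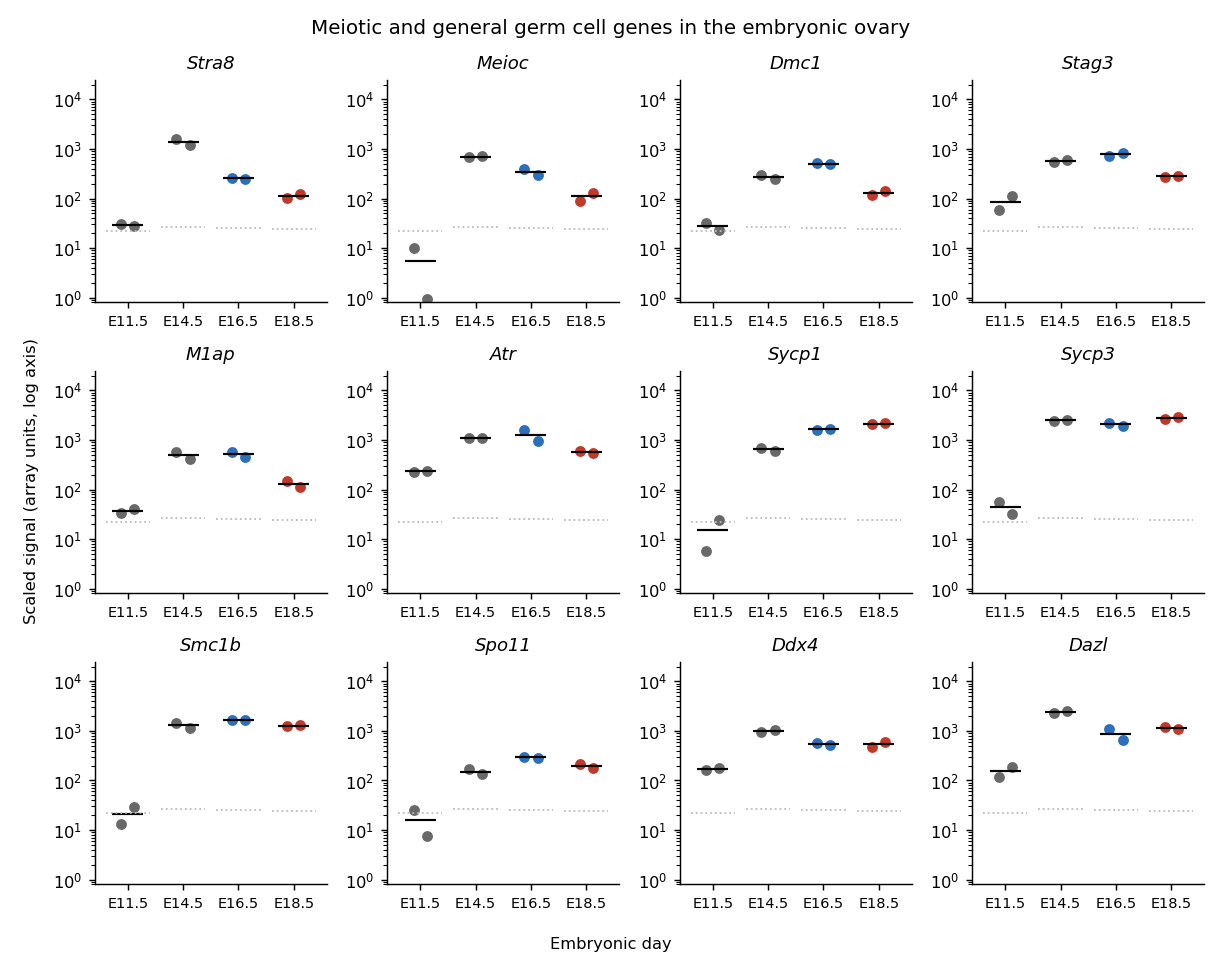
Scaled signal (log axis) of 12 meiotic and germ cell genes on the 2 arrays of each stage (points), with the stage mean (bar) and the mean 95th percentile of unspiked control probe sets (dotted line). Dmc1 read 119 and 141 at E18.5, below its 517 and 494 at E16.5, whereas Sycp1 read 2058 and 2154 at E18.5, above its 1606 and 1649 at E16.5.

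A second contrast of the same fit asked whether the change over the last interval differed from the change over the interval before, E14.5 to E16.5. The E14.5 and E16.5 arrays shared a hybridize date and the E18.5 arrays had another. The later change thus spans dates and the earlier one does not, so date and interval cannot be told apart here. It was called for 43 of 13104 genes (0.328%), with 38 values positive and 5 negative, and the 2 intervals share the E16.5 arrays. The largest fitted value was that of Dppa3, at 8.07 ± 0.41, with -2.99 over the earlier interval and 5.08 over the later one. Esrp1, an epithelial splicing regulator, read 90.9 and 79.0 at E14.5, 8.49 and 60.6 at E16.5 and 549 and 580 at E18.5 (difference 4.96 ± 0.68). Kit read 106 and 148, then 78.8 and 45.4, then 408 and 406 (3.36 ± 0.43). In these 3 genes E16.5 was thus the lowest of the 3 stages.

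Nlrp5 (3.33 ± 0.46) had changed by -0.06 over the earlier interval and Sohlh1 (2.60 ± 0.37) by 0.44. Nobox and Nlrp4f also passed this contrast, but both lay at background at E14.5 and at E16.5, so no size is given. Lhx8, at background at E14.5, did not pass (adjusted p = 0.144). Dppa5a was at 4.34 ± 0.39, with -3.13 over the earlier interval and 1.21 over the later one. Negative values came from genes higher at E16.5 than at E14.5 and E18.5, among them Dmc1 (-2.71 ± 0.38), with 0.87 before and -1.84 after, Mfap4 (-5.74 ± 0.98), H2-D1 (-2.33 ± 0.40) and the kinase Plk2 (-2.49 ± 0.40). The count for probe sets was 62, and it was 11 without E16.5 replicate 2, 20 without E16.5 replicate 1, 18 without E18.5 replicate 1, 31 without E18.5 replicate 2, 27 without E14.5 replicate 2 and 119 and 124 without E11.5 replicates 1 and 2.

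The supporting cells of the ovary gave no call in limma. Of 26 tested pregranulosa and supporting cell genes 0 passed, 9 lay above 0 and the median was -0.17. At an unadjusted p under 0.05, 1 was higher and 1 lower, against 8.26% of all genes higher and 6.24% lower. Foxl2, the transcription factor that maintains the female supporting cell, read 458 and 454 at E18.5 and 548 and 531 at E16.5 (-0.24 ± 0.19, adjusted p = 0.651). Wnt4, the signal that promotes ovary development, read 428 and 429 at E18.5 and 533 and 533 at E16.5 (-0.30 ± 0.22, adjusted p = 0.592). Lgr5, a marker of cortical pregranulosa cells, changed by 0.11 ± 0.21 (adjusted p = 0.872) and the activin antagonist Fst by -0.75 ± 0.22 (adjusted p = 0.177). Amh, made by granulosa cells of growing follicles, was too dim to test, at 6.40 and 7.03 against 6.13 and 5.70.

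Of 35 signalling genes 3 rose and 1 fell. Jag2, a second Notch ligand, read 262 and 258 at E18.5, against 68.3 and 64.6 at E16.5, and rose by 1.74 ± 0.24 (adjusted p = 0.0031). Id1, a direct target of BMP signals that blocks helix-loop-helix factors, read 3129 and 3163 at E18.5, against 1158 and 1283 at E16.5, and rose by 1.36 ± 0.19. The third was Jag1. The Notch target Hes1 read 555 and 613 at E18.5 and 312 and 321 at E16.5 without passing (0.85 ± 0.20, adjusted p = 0.0714), and the BMP target Id3 was at 0.49 ± 0.21 (adjusted p = 0.327). Wnt5a, a noncanonical Wnt ligand, read 63.4 and 51.5 at E18.5, against 197 and 139 at E16.5, and fell by 1.31 ± 0.22, but of its 3 other tested probe sets 1 lay above 0 and 0 passed. None of the 3 rises was called without E18.5 replicate 1, and 1, 1 and 2 were without E18.5 replicate 2, E16.5 replicate 1 and E16.5 replicate 2. The fall of Wnt5a was called without E16.5 replicate 2 but not without any of the other 3 arrays of these stages.

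Some stromal and vascular genes fell. Of 27 stroma and matrix genes 1 fell, 0 rose and 22 lay below 0 (median -0.23), and of 16 endothelial genes 1 fell and 0 rose (median -0.45). Mfap4, a microfibril protein, had the lowest fitted change on that scale, with 8.34 and 33.6 at E18.5 and 452 and 138 at E16.5, a fall of 2.95 ± 0.56. Pdgfra, a growth factor receptor of mesenchymal cells, read 343 and 340 at E18.5, against 1064 and 637 at E16.5, and fell by 1.23 ± 0.23, although its 2 other tested probe sets lay at -0.51 and 0.18 and did not pass.

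Aplnr, the apelin receptor of endothelium, read 83.8 and 63.9 at E18.5, against 366 and 178 at E16.5, and fell by 1.61 ± 0.28. Sparcl1, a matrix protein, read 289 and 317 at E18.5, against 1152 and 628 at E16.5, and fell by 1.44 ± 0.26, and the matrix proteins Bgn (-1.26 ± 0.25) and Islr (-1.33 ± 0.27) also fell, as seen after their values. In all of these E16.5 replicate 1 was well above E16.5 replicate 2, and in 29 of the 38 lower genes E16.5 replicate 2 read lower than replicate 1. E16.5 replicate 2 read higher than replicate 1 in 74 of the 121 higher genes and in 55.3% of all genes. Mfap4, Pdgfra, Aplnr and Sparcl1 lost their calls without E16.5 replicate 1 and without either E18.5 array. The stromal marker sum (Pdgfra, Tcf21, Col1a1 and Nr2f2) was 2142 and 1741 at E18.5 and 3474 and 2511 at E16.5, and its part in these falls was not tested.

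Of 9 genes of class I antigen presentation 2 fell and 0 rose (median -0.40). H2-K1, a class I heavy chain, read 249 and 233 at E18.5, against 767 and 596 at E16.5, and fell by 1.43 ± 0.28. H2-D1, another heavy chain, read 390 and 387 at E18.5, against 804 and 1108 at E16.5, and fell by 1.25 ± 0.23. Each had 3 other tested probe sets, all below 0, of which 1 passed for each gene. These heavy chains are near-identical copies whose probe sets can share RNA, so the 2 genes are not separate evidence. B2m, the light chain, changed by -0.60 ± 0.21 (adjusted p = 0.251). Neither heavy chain was called when any 1 of the 4 arrays of the 2 stages was left out.

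Genes made by liver rose with the oocyte genes. Of 15 tested hepatocyte genes 6 rose, 0 fell and all 15 lay above 0, with a median of 1.51, or 1.61 with genes at background set to their bound. The array held 18 genes of the list. Fgb, for example, reached the test only through its E18.5 arrays, so it could only lie above 0. The summed signal of the 15 was 4338 and 4637 at E18.5, against 941 and 1312 at E16.5. At E14.5 it was 1656 and 3860, so the E14.5 arrays lay far apart and replicate 2 was well above E16.5. Alb, serum albumin, read 1957 and 2216 at E18.5, against 205 and 488 at E16.5, and rose by 2.65 ± 0.38 (adjusted p = 0.00414). Apoa1, the apolipoprotein of high density lipoprotein, read 273 and 240 against 38.2 and 50.1 and rose by 2.18 ± 0.32, as did its 3 other tested probe sets. Fgb and Fgg, fibrinogen chains, were at background at E16.5 and rose at least 5.40-fold and 5.57-fold, and Ahsg (2.26 ± 0.34) and the thyroid hormone carrier Ttr (2.15 ± 0.35) rose too.

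The 5 hepatocyte markers Alb, Afp, Ttr, Apoa1 and Fgb summed to 3260 and 3554 at E18.5 and 520 and 824 at E16.5, and were not all at background on any of the 4 arrays. The transcription factor Hnf4a read 73.0 and 55.3 at E18.5 and 35.9 and 79.7 at E16.5, with overlapping stages. These values moved with the oocyte genes between the same arrays, and their part in the other results was not tested. None of the 6 calls held without E16.5 replicate 1 or without either E18.5 array, and 4 did without E16.5 replicate 2. Mbl2, a lectin made by liver, rose by 2.29 ± 0.28 and the white cell proteases Cpa3 (1.43 ± 0.30) and Prtn3 (at least 3.11-fold) rose as well, all named after their values were seen. Of 14 macrophage and leukocyte genes 0 passed in limma, and 4 were higher and 1 lower at an unadjusted p under 0.05. Of 11 erythroid genes 0 passed in limma, with 3 higher and 1 lower at an unadjusted p under 0.05. The shares over all genes at that p were 8.26% higher and 6.24% lower.

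**Figure D4:**
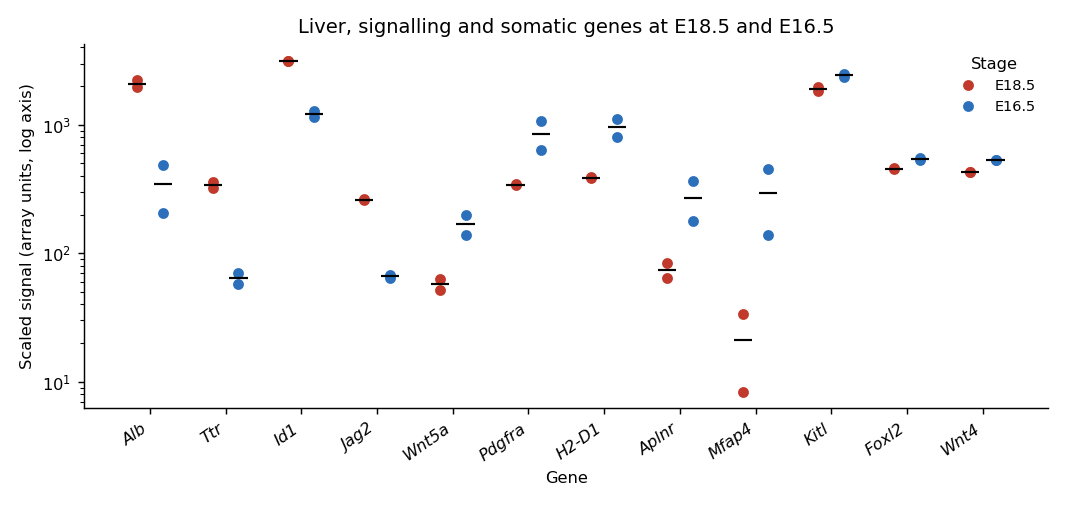
Scaled signal (log axis) of 12 liver, signalling and somatic genes on the 2 arrays of E18.5 (red, left of each pair) and of E16.5 (blue, right), with stage means as bars. Alb read 1957 and 2216 at E18.5, above 205 and 488 at E16.5, while Foxl2 read 458 and 454 at E18.5 and 548 and 531 at E16.5, and the E16.5 arrays of Pdgfra, Aplnr and Mfap4 lie further apart than the E18.5 arrays of Pdgfra.

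The cell division lists had few calls. Of 30 mitotic cell cycle genes 1 rose and 1 fell (median -0.09): Prc1, which bundles spindle midzone microtubules, read 793 and 655 at E18.5, against 264 and 253 at E16.5, and rose by 1.42 ± 0.19, and the topoisomerase Top2a read 525 and 549 at E18.5, against 1162 and 990 at E16.5, and fell by 0.98 ± 0.20. Cks2, a CDK subunit needed in meiosis of both sexes, was outside the list and was picked after its values were seen. It rose by 1.36 ± 0.24, with 2066 and 2568 at E14.5, 1015 and 1018 at E16.5 and 2455 and 2810 at E18.5. Of 30 DNA replication genes 0 passed in limma (median -0.03). At an unadjusted p under 0.05, 3 were higher and 4 lower, against 8.26% of all genes higher and 6.24% lower. Prc1 lost its call without E18.5 replicate 1, and Top2a without any 1 of the arrays of E14.5, E16.5 and E18.5. Of 20 genes of cholesterol synthesis 2 rose, the squalene synthase Fdft1 (1.56 ± 0.26) and the feedback regulator Insig1 (1.46 ± 0.23), and both lost their calls without E16.5 replicate 1 and without either E18.5 array. Of the 3 other tested probe sets of Fdft1 1 rose, and the other two lay below 0.

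Several of the largest increases were outside these gene groups. Esrp1, already given for the earlier stages, read 549 and 580 at E18.5, against 8.49 and 60.6 at E16.5, and rose by 3.75 ± 0.39 (adjusted p = 5.14e-04). Ccno, a cyclin-like protein of multiciliated cells and oocytes, read 400 and 401 at E18.5, against 30.8 and 7.06 at E16.5, and rose by 3.66 ± 0.38. Cd55, a membrane inhibitor of complement, read 705 and 661 at E18.5 and 104 and 32.6 at E16.5 and rose by 3.19 ± 0.34, and 1 of its 2 other tested probe sets passed in the same direction.

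Pramel13, of a gene family expressed in germ cells and early embryos, rose by 3.04 ± 0.37, Gdpd1, a phosphodiesterase of lysophospholipids, by 2.72 ± 0.23, and Pdcl2, a chaperone-like protein of germ cells, at least 7.09-fold. Uchl1, a ubiquitin hydrolase abundant in oocytes and neurons, read 961 and 938 at E18.5 and 186 and 245 at E16.5 and rose by 2.07 ± 0.25 (singled out once its values were known). Bzw2, a translation regulator, was the brightest of the genes that rose, at 14780 and 13286 against 1616 and 2285 (2.86 ± 0.20), but its other tested probe set changed by -0.14 ± 0.29 and did not pass (adjusted p = 0.885). Tesc, a gene of the supporting cells of the testis, rose at least 6.67-fold, at 161 and 172 against 15.4 and 8.99, as 1 of 7 tested genes of its list. Pramel13 and Tesc lost their calls without either E18.5 array, and Pdcl2 without E16.5 replicate 1 as well.

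**Figure D5:**
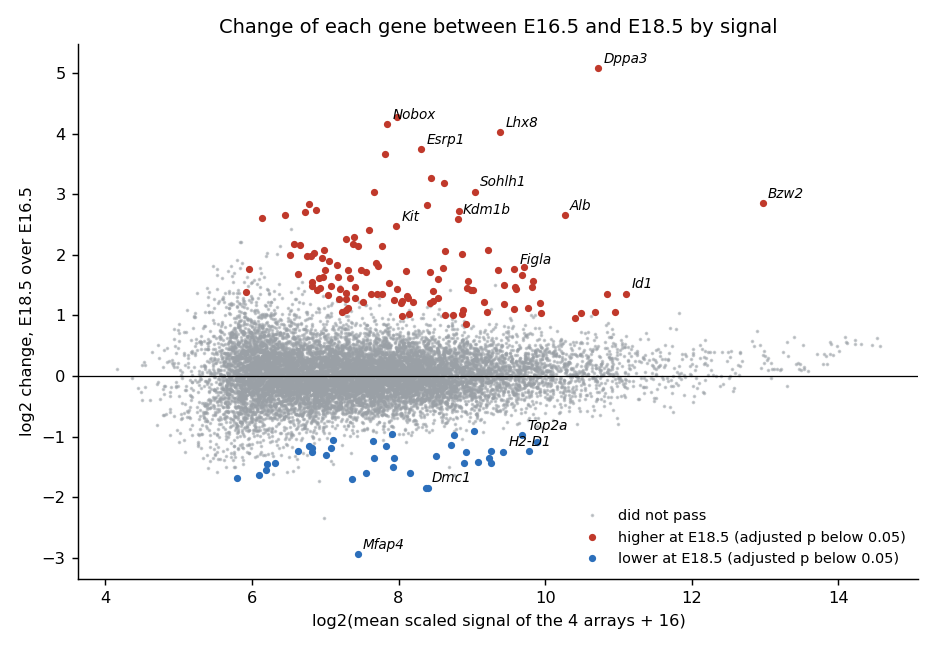
The log2 change, E18.5 over E16.5, of 13104 genes (vertical axis) against the log2 of the mean scaled signal of the 4 arrays plus 16 (horizontal axis), with 121 genes higher at E18.5 in red, 38 lower in blue and the others in grey. The increases reach 5.08 (Dppa3) and the decreases -2.95 (Mfap4), and genes past the test lie at dim and bright signals alike.

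Single genes passed in 3 further lists. Trim71, an RNA-binding protein of the early embryo, rose by 1.90 ± 0.29, the X-linked RNA export factor Nxf2 by 1.74 ± 0.26 and the heat shock protein Hsph1 by 1.21 ± 0.24, each as the 1 call of its list (9, 11 and 19 genes tested). Nxf2 and Hsph1 lost their calls without either E18.5 array and without E16.5 replicate 1, Hsph1 also without E16.5 replicate 2, and Trim71 without E18.5 replicate 1 and without E16.5 replicate 1. The surface epithelium (15 tested, median 0.16), early gonad transcription factors (16, median -0.20), steroid synthesis (7, median 0.06), imprinted growth genes (19, median -0.27), oxidative phosphorylation (30, median 0.06) and ribosomal proteins (17, median 0.20) had 0 calls in limma. At an unadjusted p under 0.05 these held 5, 0, 0, 0, 0 and 0 higher and 0, 4, 0, 5, 0 and 1 lower genes in that order, against 8.26% of all genes higher and 6.24% lower. The lists of mesonephros and ducts, smooth muscle, skeletal muscle, exocrine pancreas, neural crest and neurons, CDK inhibitors and glycolysis also had 0 calls in limma. They had 8, 9, 9, 7, 15, 6 and 21 genes tested, of which 1, 0, 1, 2, 1, 0 and 1 were higher and 0, 3, 2, 1, 3, 0 and 0 lower at an unadjusted p under 0.05.

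There were 6 other named decreases. Arpin, an inhibitor of the Arp2/3 actin complex, was at background at E18.5, with 17.9 and 16.6 against 83.2 and 92.2 at E16.5, and was at least 3.63-fold lower. Mrc2, a collagen receptor, was at least 2.68-fold lower. Ugt8a, a galactolipid synthase, read 55.2 and 64.3 at E18.5, against 307 and 170 at E16.5, and fell by 1.70 ± 0.28, and its other tested probe set fell too. Slc6a6, a taurine transporter, fell by 1.44 ± 0.26 and Lce3b, a protein of the skin envelope measured by a probe set that can share RNA with relatives, by 1.55 ± 0.30. Gse1 fell by 1.46 ± 0.29, and both of its other tested probe sets lay above 0. All 6 lost their calls when at least 3 of the 8 arrays were left out in turn, E18.5 replicate 2 among them for each. Arpin, Mrc2, Slc6a6, Lce3b and Gse1 also lost theirs with only the arrays of the stages compared in the fit. The other tested probe sets of Aplnr, Asz1, Bgn, Hsph1, Jag2, Mrc2, Slc6a6, Spdya, Tesc and Top2a lay in the direction given for each gene without passing.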

How the data were processed

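Whole-genome expression arrays were read for 10 samples of embryonic mouse ovary. The deposited value table held intensity values, 1 linear signal per probe set, scaled before deposit, since the trimmed mean of the values is the same on every array. The experiment files the authors deposited held other content, wash and scan settings, and gave the hybridize dates. Per the labels, labelling followed the single cycle protocol. The labels name no software.

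The members, gene lists and the choice to leave out both E12.5 arrays were made with earlier results of these data known. E12.5 replicate 2 correlated with the 8 arrays used at r of 0.342 to 0.428, against 0.833 to 0.961 among those 8. Each array was scaled to a 75th percentile of 139.6, the geometric mean of that percentile over all arrays but the E12.5 pair. For those 8 arrays log2 of the signal plus 16 was fitted by stage with limma 3.58.1 (R 4.3.3). The eBayes step used an intensity trend. There were 4 residual and 9.27 prior degrees of freedom. The tests were two-sided, with Benjamini-Hochberg adjustment over 26890 probe sets at 0.05. An exact permutation test of 2 against 2 arrays cannot go below p = 0.333 and was not used. Precision is limited by the number of arrays.

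Testing needed 2 or more of the 8 arrays at or above the overall median signal, 47.1. A gene that reached it only on the 2 E18.5 arrays could only lie above 0, and one that reached it only on the 2 E16.5 arrays only below 0. Counts above or below 0 and medians of lists are therefore partly set by this filter. The brightest probe set on average represents its gene. The probe annotation gave 34945 probe sets 1 symbol, 932 several and 9160 none. A stage with both arrays under the 95th percentile of 27 unspiked control probe sets gives only a bound, computed from the means of log2 signals, with the dim side at the higher of its own signal and that percentile.

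Named genes were the 15 largest increases and decreases past the test with no overlap of stages, up to 4 genes past the test per list (39 lists), 35 oocyte, meiotic and somatic genes given whether or not they passed, and the 5 largest differences of each sign between intervals. Other names, apart from the cell type markers that were summed, fell under none of these rules. They were chosen with the results known, which is said at only some of them. Promoters were taken from a RefSeq table for the oocyte list genes that rose most. The fit was tested on simulated data. Python 3.11.15, pandas 2.3.3 and matplotlib 3.10.9 made the sequence counts and figures. The alternatives tried were other sets of arrays, scalings, added values, filters and no intensity trend. The replicate number as a block, the mean of the probe sets of a gene in place of the brightest, and each array left out were also tried.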

Additional observations from a re-analysis of the deposited data

How the results depend on the processing

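No named gene that passed turned its direction under any of 20 alternatives, and of 1635 values of named genes 1358 stayed on their side of the threshold; 10 values of genes that did not pass (Zp1, Ddx4, Notch2, Rec8, Pou5f1, Lgr5) changed sign. The 236 probe sets became 3 with all 10 arrays, 221 with the first E12.5 array alone added and 145 with no filter, and 36 to 296 with 1 array left out (29 to 223 higher, 4 to 73 lower). The 174 higher and 62 lower became 3 and 0 with 10 arrays. The lower ones were 95 with quantile normalization, 19 with no filter and 27 with no intensity trend. The 62 probe sets of the second contrast became 128 with only the arrays of the stages compared, 0 with 10 arrays, 113 with quantile normalization, 95 with 64 added, 20 with no filter and 27 with no intensity trend, and 11 to 124 with 1 array left out. The share of calls that were higher was 73.7%, 86.9% with no filter and 83.8% with no intensity trend. With the replicate block the counts were 222 and 64, and Top2a lost its call. With the mean of probe sets in place of the brightest, Jag1, Atr, 4930447C04Rik, Wnt5a, Pdgfra, Fdft1, Mrc2, Gse1 and Slc6a6 lost their calls. The list of secreted and membrane proteins of the oocyte then had 0 rises and that of stroma and matrix 0 falls. Deviations of same-numbered arrays correlated at -0.0722 to 0.0364, so the numbers do not pair the arrays. The cause of these moves was not tested. With a lone array, a stage was assumed to vary like the others. Signals near 20 to 30 limit the size of changes: Nobox was at 5.55 with 1 added and 2.74 with 64.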
